A study of Rattus norvegicus with 4 samples.

Results

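Molecular chaperones and the regulators of the unfolded protein response (UPR) were examined in dorsal root ganglia (DRG) of cisplatin-treated and vehicle-treated rats. The genes were taken by symbol from the protein-coding genes of the deposited count table. They were the heat shock protein families whose symbols start with Hsp90, Hspa, Hspb, Hspd, Hspe or Hsph, the J-domain proteins (Dnaja, Dnajb and Dnajc), the Cct subunits of the TRiC chaperonin, the Bag co-chaperones, calnexin (Canx), calreticulin (Calr), the Pdia oxidoreductases, the heat shock factors (Hsf), and the UPR factors Atf4, Atf6, Xbp1 and Ddit3. This choice gave 100 of 22293 protein-coding genes and of 33506 genes in all. The choice used symbols and no measured value. No gene carried the symbol Hspe1.

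The 4 libraries came from Wistar rats that the labels give as wild type, 2 treated with vehicle (PBS) and 2 with cisplatin, a platinum-based chemotherapeutic, at 0.3 mg/kg. According to the study's methods the injections were intraperitoneal and given on P14 and P16. The methods place the collection of the lumbar DRGs at P23, with several ganglia pooled for a library, while the labels give 16 days after treatment. Males and females were used in the study, and the sex behind each library is not given in the sources used here. Rats 1 and 2 of each group, as numbered in the labels, are called replicates 1 and 2 below. In sets of values, vehicle replicates 1 and 2 stand before "against" and cisplatin replicates 1 and 2 after it.

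Chaperones bind unfolded proteins and keep them from aggregating until they fold or are degraded. In the cytosol, proteotoxic stress frees heat shock factor 1, which binds heat shock elements in the promoters of chaperone genes. In the endoplasmic reticulum (ER), unfolded proteins draw the chaperone BiP (Hspa5) away from the sensors IRE1, PERK and ATF6. IRE1 splices Xbp1 mRNA, PERK slows translation while favouring that of Atf4, and ATF6 is cleaved to a transcription factor, so that much of the UPR acts through proteins and splicing that gene counts do not report. Sensory neurons carry long axons and large secretory loads, and chaperones such as Hspb1 are well known in peripheral nerve, where mutations of its human counterpart cause inherited neuropathy.

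Promoter elements of both arms of the stress response were found in some of these genes and are shown first. The gene groups below are ordered by these arms. RefSeq promoters (assembly GRCr8, 250 bases before to 50 bases after each gene's start) could be matched by symbol for 79 of the 100 genes. The ER stress element (CCAAT and CCACG with any 9 bases between them), searched on both strands, was present in 6 of these 79 (7.59%) and in 21 of all 27457 promoters (0.0765%). Those windows are printed here on the gene's own strand with the element in capitals, which reads CGTGG to ATTGG where the match lies on the opposite strand.
Hspa5 (chr3:38452953-38453011, plus strand): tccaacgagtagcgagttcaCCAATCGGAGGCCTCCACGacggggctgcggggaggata
Hsp90b1, upstream copy (chr7:23012431-23012489, minus strand): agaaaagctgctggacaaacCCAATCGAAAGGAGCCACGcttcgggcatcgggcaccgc
Hsp90b1, downstream copy (chr7:23012327-23012385, minus strand): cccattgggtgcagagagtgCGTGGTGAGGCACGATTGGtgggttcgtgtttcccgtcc
Calr (chr19:40213117-40213173, plus strand): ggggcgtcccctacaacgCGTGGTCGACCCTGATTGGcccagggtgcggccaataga
Canx (chr10:35158049-35158107, minus strand): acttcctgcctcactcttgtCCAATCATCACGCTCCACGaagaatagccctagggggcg
Dnajc3 (chr15:102432514-102432572, plus strand): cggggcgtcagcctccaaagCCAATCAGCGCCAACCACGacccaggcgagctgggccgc
Xbp1 (chr14:84604538-84604596, plus strand): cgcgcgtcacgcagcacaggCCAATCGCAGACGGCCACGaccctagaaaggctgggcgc
All 6 genes encode ER chaperones or the UPR factor Xbp1. The heat shock element, searched as GAA, TTC and GAA with any 2 bases between the units and as its reverse complement, was present in 5 of the 79 genes (6.33%) and in 202 of all promoters (0.736%). Those of Hspa8, Hsph1 and Hspd1 lie upstream of the start and are printed with the element in capitals. Those of Dnaja1 and Cct4 lie downstream of the start.
Hspa8, distal copy (chr8:50080281-50080333, plus strand): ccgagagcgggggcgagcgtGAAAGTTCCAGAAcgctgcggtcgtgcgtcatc
Hspa8, proximal copy (chr8:50080439-50080491, plus strand): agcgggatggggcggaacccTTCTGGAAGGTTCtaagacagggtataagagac
Hsph1 (chr12:10427312-10427364, plus strand): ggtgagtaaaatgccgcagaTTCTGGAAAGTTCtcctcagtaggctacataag
Hspd1 (chr9:64084242-64084287, minus strand): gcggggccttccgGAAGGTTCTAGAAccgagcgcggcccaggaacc
In Hspd1 the printed element overlaps another match that starts 5 bases further upstream. A match describes the letters of these windows only.

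The total count was 21384801 to 25618417 per library, and the 100 genes took 1.03% to 1.29% of it. Markers of sensory neurons were detected for 18 of 18 genes, and those of Schwann cells for 12 of 12. The libraries differed in more than treatment. Schwann cell markers summed to 63767 and 163314 against 49636 and 142377 normalised counts (CPM, scaled to library size), with both replicates 2 far above both replicates 1. Sensory neuron markers summed to 35667 and 27387 against 44644 and 31689.9 CPM, with both replicates 1 the higher within their group and 17 of 18 markers above 0 in log2 fold change. Skeletal muscle markers summed to 1266 and 201 against 388 and 250 CPM, and vehicle replicate 1 stood apart. Pvalb alone held 266 and 163 against 302 and 218 CPM of these sums. Outside vehicle replicate 1 the sums thus rest mostly on this gene. Log2 fold changes were positive for 0 of 12 tested Schwann cell markers (median -0.40). For skeletal muscle they were positive for 1 of 15, Pvalb (median of the 15 -3.35). Of the tested markers of other cells, they were positive for 4 of 10 of satellite glia, 8 of 13 of macrophages, 6 of 11 of fibroblasts and meninges, 2 of 7 of endothelium and 4 of 7 of erythroid cells, with medians of -0.23 to 0.15. Counts of mitochondrially encoded genes took 1.53% and 2.58% against 5.46% and 4.78% of the total. In whole ganglia, fewer cells of a type and less RNA per cell cannot be told apart.

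No chaperone or UPR gene passed the test between cisplatin-treated and vehicle-treated DRGs, and most lay close to no difference. Of the 100, 93 passed the filter on low counts. With edgeR's quasi-likelihood test, 0 of 93 were called higher and 0 were called lower at an adjusted p under 0.05 with a fold change of at least 1.5 (background 0% higher and 0.00679% lower, which is 1 of 14719 genes). DESeq2 also called 0 of the 98 genes it tested (background 0.2% higher and 0.35% lower). At an unadjusted p under 0.05, edgeR gave 3 higher genes (background 3.74%) and 2 lower genes (background 5.83%), at or below the share in the whole table. With the fold threshold kept, these were 2 higher (background 2.8%) and 1 lower (background 5.32%) with edgeR, and 2 higher (background 2.46%) and 1 lower (background 4.65%) with DESeq2. Only differences of this kind in the 2 libraries a group are described below, and a gene that missed the threshold is not thereby shown to be equal.

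Of the 93 genes, 54 (58.1%, background 49.1%) had a positive and 39 (41.9%, background 50.9%) a negative log2 fold change. The median over them was 0.04, beside -0.01 for all genes tested. In size, disregarding direction, the median log2 fold change was 0.18, beside 0.28 for all genes, and 82 of 93 lay within 0.5 of 0. The largest positive value was 0.90 for Hspb7 and the largest negative value was -0.72 for Pdia5. In 72 of 93 genes (77.4%) the larger of the 2 differences between replicates of a group exceeded the difference between group means, beside a background of 69.8%. Both cisplatin libraries lay above both vehicle libraries in 25 genes (26.9%, background 20.6%) and below them in 13 (14%, background 21.2%). The plot of fold changes by role shows where these genes fall.

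**Figure D1:**
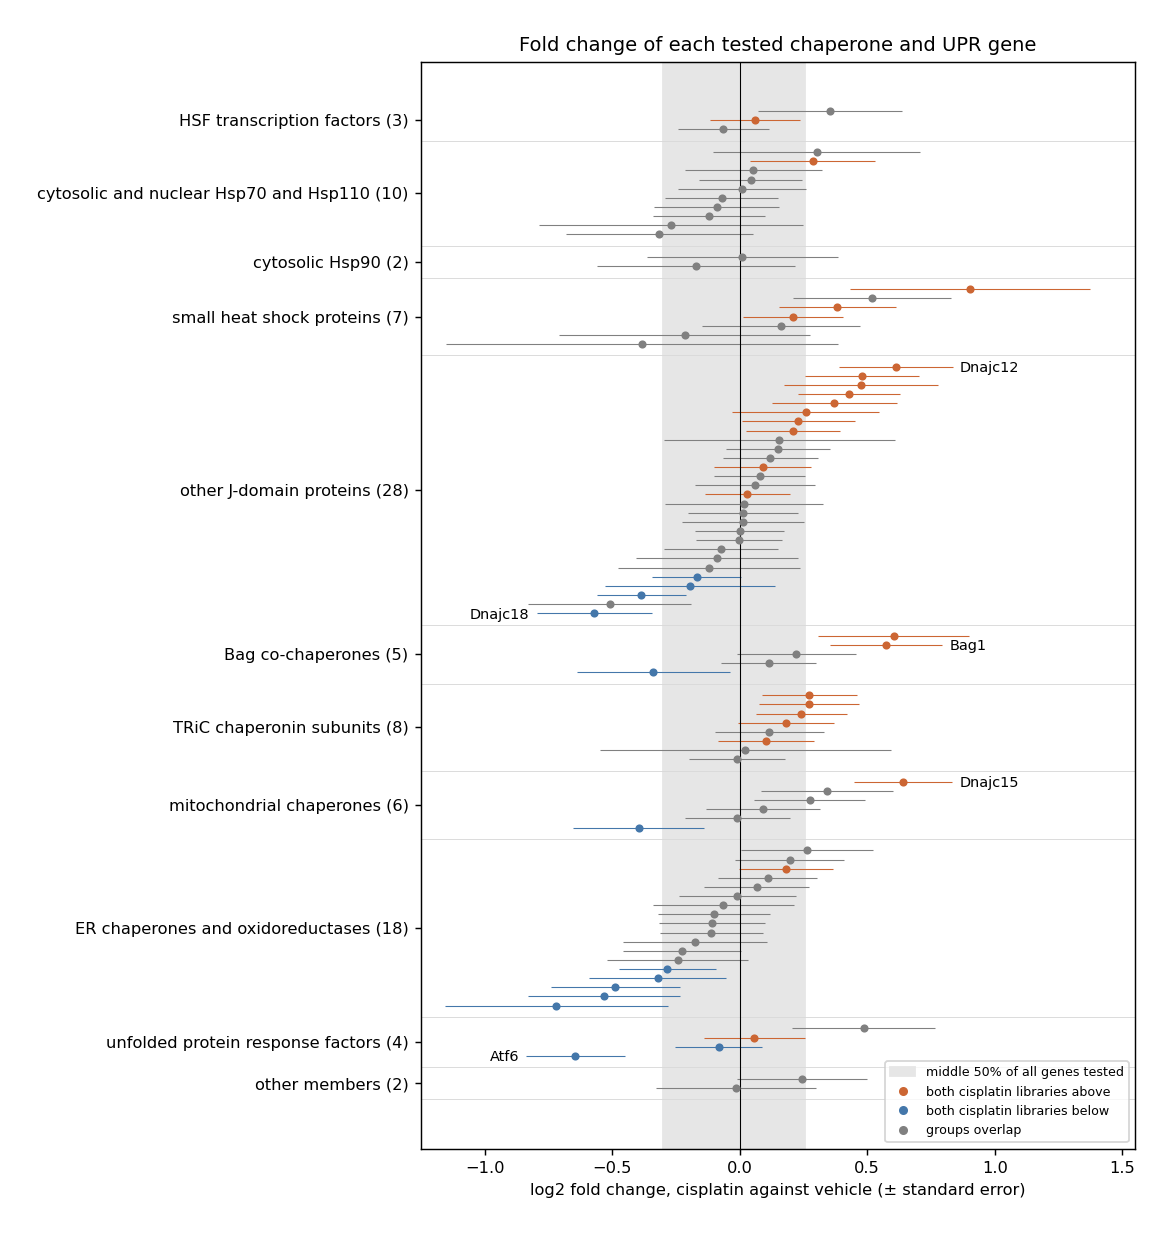
Log2 fold change of the 93 tested genes between cisplatin and vehicle (horizontal axis, bars are standard errors from edgeR, n = 2 libraries a group), 1 gene a row and grouped by role, with the number of genes in brackets. Colour marks whether both cisplatin libraries lay above or below both vehicle libraries, the grey band spans the middle 50% of all genes tested (-0.30 to 0.25), and the 5 genes at an unadjusted p under 0.05 are named.

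Among the UPR factors, Atf6 alone was at an unadjusted p under 0.05. Atf6, the ER-membrane sensor whose cleaved form activates ER chaperone genes, was counted at 37.8 and 34.6 against 21.6 and 24.7 CPM. Both cisplatin libraries lay below both vehicle libraries, with group means of 36.2 ± 2.26 and 23.1 ± 2.12 CPM (SD, n = 2 each). The log2 fold change was -0.64 (SE 0.19), a level 1.56-fold lower, with an unadjusted edgeR p of 0.0174 and an adjusted p of 0.509 (0.407 with DESeq2). It was the gene with the smallest p of the 93, and leaving out each library in turn gave -0.74 to -0.54. Atf6 lies at chr13:89055983-89242443 in Rnor_6.0 and is long, at 4684 bases of gene length. With a correction for gene length its log2 fold change was -0.46, with an unadjusted edgeR p of 0.0548.

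The other UPR factors had an unadjusted p above 0.05. Atf4, whose translation is favoured under the integrated stress response, had 298 and 315 against 319 and 318 CPM, a log2 fold change of 0.06 (SE 0.20, adjusted p = 0.935). Both cisplatin libraries lay above both vehicle libraries by a small margin. Atf4 was among the most abundant of all 100 genes, with a mean of 216 FPKM. Xbp1, the target of IRE1 splicing, had 72.9 and 76.8 against 69.4 and 71.9 CPM and a log2 fold change of -0.08 (SE 0.17, adjusted p = 0.889). The 4 Xbp1 values are close together, although the groups do not overlap. Ddit3, which encodes the pro-apoptotic factor CHOP, had 29.2 and 21.7 against 42.9 and 28.5 CPM and a log2 fold change of 0.49 (SE 0.28, adjusted p = 0.593). For Ddit3 the high value was that of cisplatin replicate 1, and cisplatin replicate 2 lay below vehicle replicate 1.

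**Figure D2:**
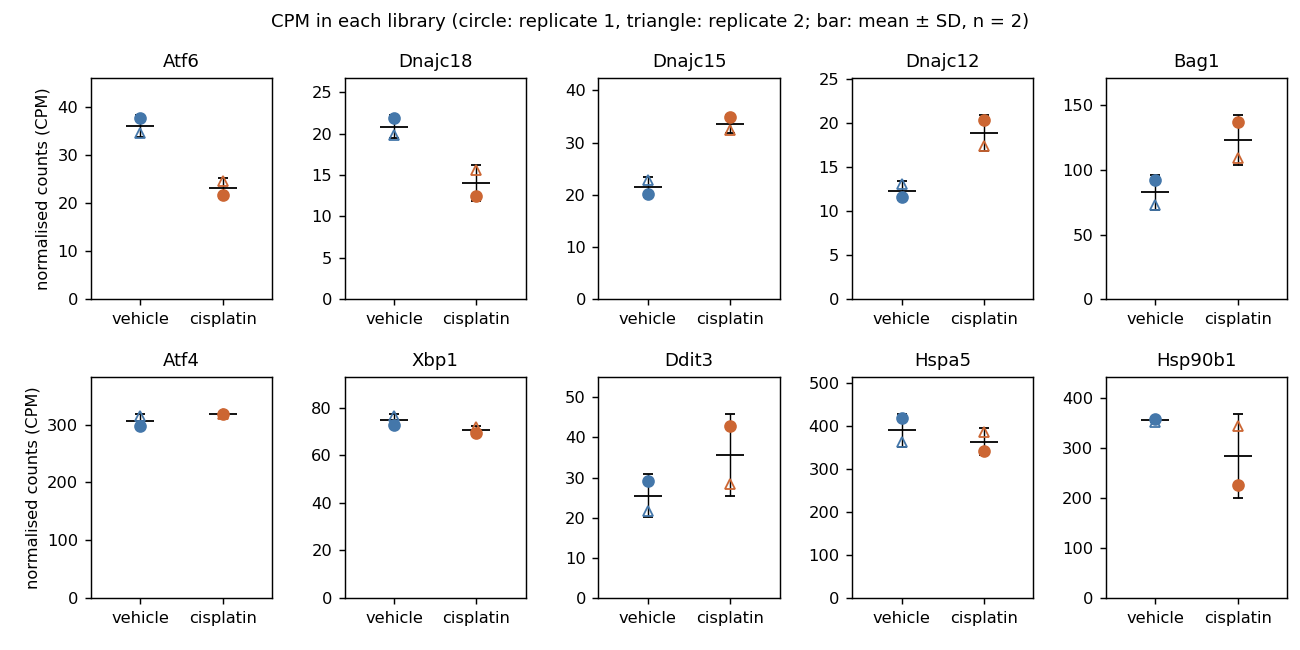
Normalised counts (CPM, vertical axes from 0) in each of the 4 libraries for the 5 genes at an unadjusted p under 0.05 (upper row) and for 5 genes of the UPR (lower row), with circles for replicate 1, triangles for replicate 2, and bars for the mean ± SD. In the upper row the groups do not overlap, while Hspa5 and Ddit3 overlap and the difference in Hsp90b1 lies mainly in cisplatin replicate 1, at 226 CPM.

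The ER chaperones and oxidoreductases, among them products of the UPR, had mostly negative values, and none passed the test. Of 18 genes, 13 had a negative and 5 a positive log2 fold change, with a median of -0.11. Dnajc14 and Dnajc18, which are also anchored in the ER membrane, were counted with the other J-domain proteins and are not among these 18. In 18 of 18 the difference between replicates exceeded that between groups, so that the direction of the group rests on differences smaller than its own spread. Their summed level was 1155 and 1220.0 against 1054 and 1293 FPKM, with cisplatin replicate 2 the highest and cisplatin replicate 1 the lowest. Without cisplatin replicate 1 the median was -0.01, and without cisplatin replicate 2 it was -0.27.

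Hspa5 (BiP), the ER Hsp70 whose level is the standard readout of the UPR, had 417 and 362 against 341 and 385 CPM. The groups overlapped, and the log2 fold change was -0.10 (SE 0.22, adjusted p = 0.894). Hsp90b1 (Grp94), the ER Hsp90, had 359.5 and 353 against 226 and 345 CPM and a log2 fold change of -0.32 (SE 0.27, adjusted p = 0.701). Both cisplatin libraries lay below both vehicle libraries, cisplatin replicate 2 by a small margin. Calr, a lectin chaperone of glycoproteins and the most abundant ER gene here at 263 FPKM, had 411 and 503 against 482 and 615 CPM and a log2 fold change of 0.26 (SE 0.26, adjusted p = 0.745). Canx, its membrane-bound partner, had 773 and 921 against 667 and 832 CPM and a log2 fold change of -0.18 (SE 0.28, adjusted p = 0.856). Calr and Canx thus had opposite signs, and for both the groups overlapped.

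The disulphide isomerases gave a log2 fold change of -0.01 (SE 0.23) for Pdia3, 0.07 (SE 0.21) for Pdia4 and -0.11 (SE 0.21) for Pdia6. Among the ER J-domain proteins, Dnajc3, which binds BiP and inhibits PERK, had 22.1 and 22.0 against 12.8 and 18.6 CPM and a log2 fold change of -0.49 (SE 0.25, adjusted p = 0.563). The cisplatin libraries lay below the vehicle libraries and replicate 1 lay lowest. Dnajb9, a BiP cofactor that restrains IRE1, had 38.5 and 33.2 against 41.1 and 40.2 CPM. Both cisplatin libraries lay above both vehicle libraries, with a log2 fold change of 0.18 (SE 0.18, adjusted p = 0.756). Dnajb11, another BiP cofactor, was at 0.11 (SE 0.19). As for Dnajc3, both cisplatin libraries were below both vehicle libraries for Pdia5 (7.99 and 9.91 against 3.31 and 7.57 CPM), Dnajc16 and Hspa13. Pdia5, Dnajc16 and Hspa13 were picked out after their values were seen. Of the 18 ER genes, 5 had both cisplatin libraries below both vehicle libraries (background 21.2%) and 1 had them above (background 20.6%). Over the 6 genes with the ER stress element printed above, the log2 fold change had a median of -0.14 and was positive in 1 (Calr), beside 0.06 with 43 of 67 positive among the tested genes whose promoter lacked it.

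UPR genes outside the list were counted in the same fit, on lists of known pathway members, and edgeR called 0 genes in any of them. Of 8 ER stress sensors and stress kinases, 2 had a positive and 6 a negative log2 fold change, with a median of -0.23 and none at an unadjusted p under 0.05. Of 23 genes of the integrated stress response and ATF4 targets, 8 were positive and 15 negative, with a median of -0.04 and again none at that p. Of 34 other ER folding and UPR target genes, 18 were positive and 16 negative, with a median of 0.04. In this list Sdf2 (47.2 and 54.0 against 88.1 and 71.7 CPM) and the translocon-associated subunit Ssr4 (45.9 and 58.8 against 70.0 and 89.7 CPM) had an unadjusted p of 0.0181 and 0.0386. Their log2 fold changes were 0.66 and 0.61, and with the length correction 0.51 and 0.35, where Ssr4 no longer had an unadjusted p under 0.05.

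Of 22 genes of ER-associated degradation, which removes misfolded proteins from the ER, 8 were positive and 14 negative, with a median of -0.04. The mannosidase-like genes Edem3 and Edem1, which mark misfolded glycoproteins for this route, were at an unadjusted p under 0.05 on this list. Edem3 had 22.7 and 19.8 against 8.23 and 9.86 CPM, a log2 fold change of -1.23 (SE 0.23) and an adjusted p of 0.509 with edgeR and 0.0288 with DESeq2, which called it. Edem1 had 36.1 and 34.7 against 14.5 and 19.3 CPM, a log2 fold change of -1.07 (SE 0.22) and an adjusted p of 0.509 with edgeR and 0.0565 with DESeq2. For both, each cisplatin library lay below each vehicle library, and with the length correction the log2 fold changes were -1.14 and -1.01. Sel1l, the adaptor of the same route, also under that p, was at -0.44 (SE 0.17, adjusted p = 0.516), and -0.16 with the length correction.

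The heat shock factors, which drive the cytosolic response, did not pass the test. Hsf1, the main stress-activated factor, had 36.2 and 37.3 against 36.7 and 33.5 CPM and a log2 fold change of -0.06 (SE 0.18, adjusted p = 0.918). Hsf2, a related factor active in development, had 33.5 and 32.6 against 35.3 and 33.6 CPM and a log2 fold change of 0.06 (SE 0.18, adjusted p = 0.921). The 4 libraries differed little for both genes. Hsf4, best known from the lens, was the most abundant of the factors at 18.6 FPKM, and its 4 values of 33.5 and 24.7 against 44.7 and 29.7 CPM overlapped between groups, with replicate 1 the higher in each group.

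The inducible and constitutive cytosolic chaperones showed no common direction. The 10 tested Hsp70 and Hsp110 genes of the cytosol and nucleus divided into 5 positive and 5 negative values, with a median log2 fold change of -0.03, which became 0.10 with the length correction. Hspa1a and Hspa1b, the stress-inducible Hsp70 copies, were near the floor of detection, with 1 and 7 against 9 and 9 counts for Hspa1a and 57 and 86 against 111 and 89 counts for Hspa1b. They share a protein name in the table, and their summed counts were 58 and 93 against 120 and 98. These raw counts are not scaled to library size, and in CPM the groups overlapped for each gene and for the sum. Hsph1, the Hsp110 that reloads Hsp70 with nucleotide, had 271 and 193 against 276 and 205 CPM and a log2 fold change of 0.05 (SE 0.27, adjusted p = 0.957). Hspa12a, a distant Hsp70 relative, had the highest level of the group at 92.5 FPKM and a log2 fold change of -0.09 (SE 0.24, adjusted p = 0.915).

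Hsp90ab1, the constitutive cytosolic Hsp90, was the most abundant of the 100 genes at 720.0 FPKM, at the 99.7th percentile of all protein-coding genes. It had 2188 and 1720.0 against 2099 and 1837 CPM and a log2 fold change of 0.01 (SE 0.38, adjusted p = 0.995), and replicate 1 was the higher in both groups. Of 13 known HSF1-induced genes outside the list, 8 were positive and 5 negative, with a median log2 fold change of 0.11. Of 29 co-chaperones of Hsp70 and Hsp90, 20 were positive and 9 negative, with a median of 0.17. Among these, Sugt1 at 0.47 (SE 0.17) and Nudcd3 at -0.94 (SE 0.29) had an unadjusted p under 0.05, which Sugt1 lost with the length correction, at 0.39. Immediate early genes, which respond to handling and dissection, gave 5 positive and 11 negative values of 16, with a median of -0.10 and none at an unadjusted p under 0.05. Of the genes with the heat shock element described above, Dnaja1, Hsph1, Hspd1 and Cct4 had log2 fold changes of 0.01 to 0.18. The printed Hspa8 windows belong to a locus on chromosome 8 that carries another name in the count table, and its values follow.

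For Hspa8 and Hsp90aa1, the gene that carries the symbol held few of the counts. Hspa8 encodes Hsc70, the constitutive Hsp70, and 8 genes of the table carry its protein name. The gene with the symbol Hspa8 (ENSRNOG00000032585, chr5:99031013-99033107 in Rnor_6.0) spans 2095 bases with a gene length of the same size, and it held 1.02% of the counts of these 8. Its values were 12.8 and 10.5 against 15.6 and 12.8 CPM and its log2 fold change was 0.29 (SE 0.25, adjusted p = 0.709). A gene listed as AABR07070032.1 (ENSRNOG00000034066, chr8:44990014-44993179) lies between Clmp and Bsx, the place that RefSeq gives to Hspa8 in GRCr8. It held 21309 and 14190 against 31158 and 24851 counts, or 851 and 721 against 1226 and 1056 CPM, and at 486 FPKM it would stand next to Hsp90ab1 among the chaperones. Both cisplatin libraries lay above both vehicle libraries, with a log2 fold change of 0.54 (SE 0.29, adjusted p = 0.569), and 0.48 with the length correction. The 8 genes together held 29591 and 18942 against 39486 and 32366 counts. How reads that fit several of these copies were assigned is not given in the sources used here.

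Hsp90aa1, the stress-inducible cytosolic Hsp90, showed the same division. The gene with its symbol had 7.87 and 4.06 against 5.71 and 4.93 CPM, held 8.31% of the counts of the genes with its protein name, and lies wholly within Dync1h1 on the opposite strand. Its log2 fold change was -0.17 (SE 0.39, adjusted p = 0.901). The neighbouring LOC103692716 (chr6:135107271-135112775), which carries the same protein name, had 58.0 and 63.1 against 42.9 and 41.9 CPM. There both cisplatin libraries were the lower, with a log2 fold change of -0.51 (SE 0.17, adjusted p = 0.509). The loci that carry most counts for these chaperones therefore had opposite signs. They were looked up after the values of the named genes were seen.

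**Figure D3:**
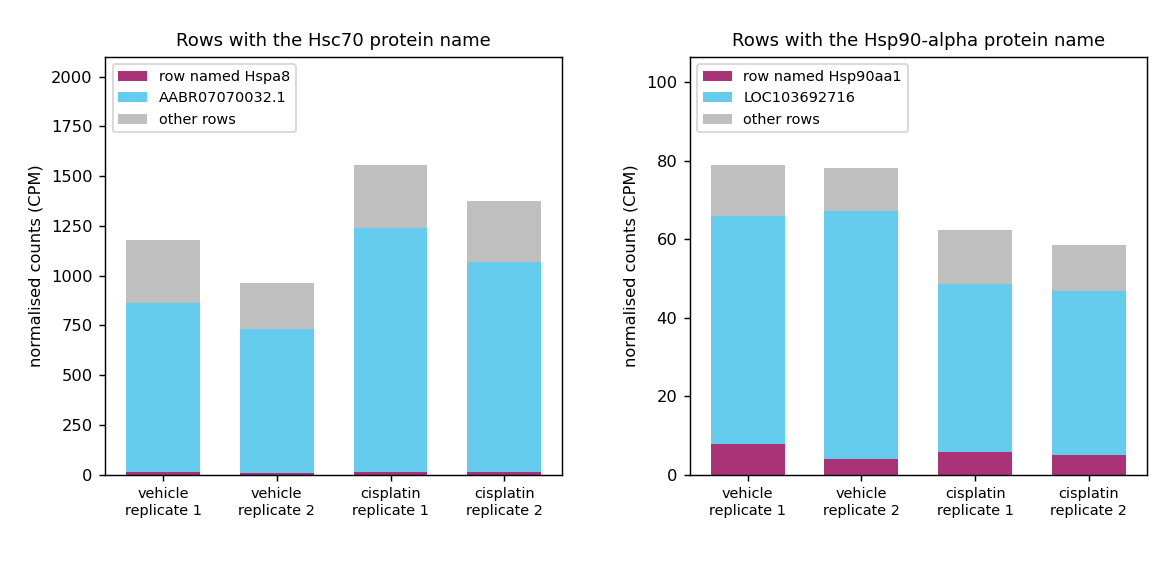
Normalised counts (CPM, vertical axes from 0) in each library, stacked over all genes that carry the protein name of Hsc70 (left) or Hsp90-alpha (right). The gene with the symbol Hspa8 is barely visible beside AABR07070032.1, and the left bars are higher in both cisplatin libraries while the right bars are lower.

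The J-domain proteins recruit Hsp70 to its substrates, and 28 of the 30 not grouped here with the ER or mitochondrial chaperones were tested. Some of these, such as Dnajc18 in the ER membrane and Dnajc30 in mitochondria, also reside in those compartments. Of these, 18 had a positive and 10 a negative log2 fold change, with a median of 0.04. Dnaja1, the most abundant at 182 FPKM, had 342 and 256 against 322 and 281 CPM and a log2 fold change of 0.01 (SE 0.24, adjusted p = 0.99). Dnajb1, the classical stress-inducible Hsp40, had 74.5 and 83.3 against 97.3 and 85.0 CPM and a log2 fold change of 0.21 (SE 0.18, adjusted p = 0.715). For Dnajb1 cisplatin replicate 2 lay only just above vehicle replicate 2.

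Dnajc12 and Dnajc18 were the genes of this J-domain group at an unadjusted edgeR p under 0.05. In 10 of its 28 genes both cisplatin libraries lay above both vehicle libraries, and in 4 below them (background 20.6% and 21.2%). Dnajc12, a co-chaperone of the aromatic amino acid hydroxylases, had 11.5 and 13.1 against 20.3 and 17.4 CPM, and group means of 12.3 ± 1.1 and 18.8 ± 2.07 CPM (SD, n = 2 each). Both cisplatin libraries were the higher, with a log2 fold change of 0.61 (SE 0.22), an unadjusted edgeR p of 0.0358 and an adjusted p of 0.509 (0.547 with DESeq2). Dnajc18 had 21.9 and 19.9 against 12.5 and 15.6 CPM, with both cisplatin libraries the lower. Its log2 fold change was -0.57 (SE 0.23), with an unadjusted edgeR p of 0.0474 and an adjusted p of 0.519 (0.618 with DESeq2). With the length correction, Dnajc12 was at 0.46 and Dnajc18 at -0.64.

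Among the Bag co-chaperones, which release nucleotide from Hsp70, only Bag1 was at an unadjusted edgeR p under 0.05. Groups also did not overlap for Bag2, at a log2 fold change of 0.60 (SE 0.30), and Bag4, at -0.34 (SE 0.30). Bag2 and Bag4 were picked out after their values were seen. Of the 5 tested Bag genes, 2 had both cisplatin libraries above both vehicle libraries (background 20.6%) and 1 had them below (background 21.2%). The values of Bag1 were 92.3 and 73.0 against 137 and 109 CPM, and the lowest cisplatin library lay above the highest vehicle library. The log2 fold change was 0.57 (SE 0.22), just under the fold threshold of 1.5. The unadjusted edgeR p was 0.0430 and the adjusted p was 0.516 (0.538 with DESeq2). With the length correction the log2 fold change was 0.42, with an unadjusted edgeR p of 0.117. In both groups replicate 1 was the higher, as it was for the summed neuronal markers, whose part in the difference was not tested. Bag3, which works with Hspb8 in selective autophagy, had 143 and 131 against 187 and 132 CPM and a log2 fold change of 0.22 (SE 0.23, adjusted p = 0.765). Hspb8 itself had 212 and 144 against 310.0 and 200 CPM and a log2 fold change of 0.52 (SE 0.31, adjusted p = 0.60), again with overlapping groups. For Bag3 and Hspb8 alike, cisplatin replicate 1 was the highest of the 4 libraries.

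The small heat shock proteins hold unfolding proteins in a state that Hsp70 can rescue, and 7 of 8 were tested. Of these, 5 were positive and 2 negative, with a median log2 fold change of 0.21, which was 0.00 with the length correction. That corrected median is the value of Hspb11, and the 7 corrected values ran from -0.67 to 0.85. Hspb11, like the others, was grouped by symbol alone, and its place in this family was not checked. Hspb1, the most abundant at 298 FPKM, had 261 and 237 against 298 and 277 CPM. Both cisplatin libraries were the higher, with a log2 fold change of 0.21 (SE 0.20, adjusted p = 0.734), and -0.02 with the length correction. Hspb7, the gene with the highest fold change, had a mean of only 0.436 FPKM, with 17 and 11 against 26 and 31 counts.

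For some chaperones the replicates of a group differed more than the groups did. Hspb2, a small heat shock protein of muscle and nerve, had 73.0 and 136 against 52.2 and 128 CPM. Hspa2, an Hsp70 best known from the testis, had 127 and 262 against 93.6 and 229 CPM. Both genes were higher in replicate 2 of either group, and so was Cryab, a small heat shock protein outside the list, at 389 and 908 against 380.1 and 1043 CPM. The summed Schwann cell markers given above follow the same order, and their part in these values was not tested. Hsp90ab1, Hsph1, Dnaja1, Hspb8 and Hsf4 lay the other way, with replicate 1 the higher in both groups. These genes were picked out after their values were seen. Across the 93 genes, the difference of replicate 2 from replicate 1 had the same sign in the vehicle and the cisplatin group for 65, beside 10655 of the 14719 genes tested.

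**Figure D4:**
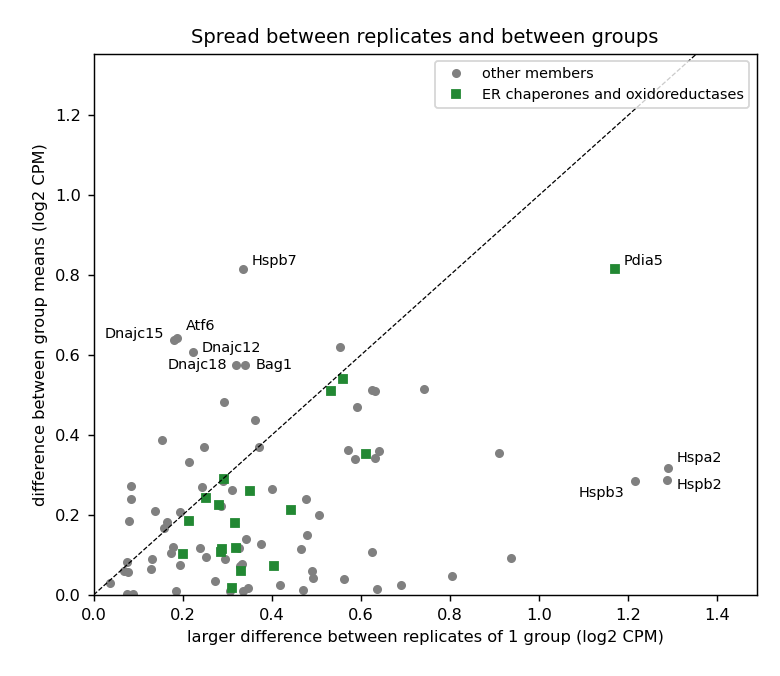
For each of the 93 tested genes, the difference between group means (vertical axis, log2 CPM) is plotted against the larger difference between the replicates of a group (horizontal axis, log2 CPM), with the dashed line where the 2 are equal. In 72 of 93 genes the point lies below the line, all 18 genes grouped as ER chaperones and oxidoreductases (green squares) among them, while Atf6, Dnajc12, Dnajc15, Dnajc18, Bag1 and Hspb7 lie above it.

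The TRiC chaperonin folds actin and tubulin in the cytosol, and most of its subunits had small positive values. Of the 8 tested Cct genes, 7 had a positive log2 fold change, with a median of 0.15, and in 5 of 8 both cisplatin libraries lay above both vehicle libraries (background 20.6%). Cct5, the most abundant at 126 FPKM, had 209 and 197 against 242 and 248 CPM and a log2 fold change of 0.27 (SE 0.19, adjusted p = 0.642). Cct2 had 177 and 156 against 158 and 172 CPM and a log2 fold change of -0.01 (SE 0.19, adjusted p = 0.988), so the subunits of the ring did not all show the difference. The summed level of the subunits was 598 and 527 against 641 and 630.0 FPKM, and the cisplatin libraries were the higher. Tcp1, the subunit outside the symbol rule, was at 0.08 (SE 0.19).

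Prefoldin hands actin and tubulin to TRiC. On the list of prefoldin genes with Tcp1, 8 of 9 were positive, with a median of 0.46, and in 7 of 9 both cisplatin libraries were the higher (background 20.6%). Pfdn2 had 41.1 and 42.4 against 63.7 and 61.1 CPM and a log2 fold change of 0.58 (SE 0.17, adjusted p = 0.509). Pfdn1, Pfdn4, Pfdn6 and Vbp1 also had an unadjusted p under 0.05, and none had an adjusted p below 0.509. With the length correction these 5 log2 fold changes were 0.19 to 0.49, and only that of Pfdn2 kept an unadjusted p under 0.05.

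The mitochondrial chaperones import and fold proteins of the matrix. Dnajc15, an inner-membrane J-domain protein that restrains respiratory complex I, had 20.2 and 22.9 against 34.8 and 32.4 CPM, and group means of 21.6 ± 1.91 and 33.6 ± 1.70 CPM (SD, n = 2 each). Both cisplatin libraries were the higher, with a log2 fold change of 0.64 (SE 0.19), an unadjusted edgeR p of 0.0180 and an adjusted p of 0.509 (0.395 with DESeq2). Leaving out each library in turn gave 0.56 to 0.74, and the length correction gave 0.44. It is a short gene of 1014 bases. Mitochondrially encoded transcripts, which took the larger share in the cisplatin libraries, moved with it, and their part was not tested.

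Hspd1 (Hsp60), the matrix chaperonin, had 273 and 222 against 289 and 238 CPM and a log2 fold change of 0.09 (SE 0.22, adjusted p = 0.908). Hspa9, the matrix Hsp70, had 163 and 105 against 100.1 and 103 CPM, a log2 fold change of -0.40 (SE 0.26, adjusted p = 0.624). For Hspa9 vehicle replicate 1 was far above the other libraries, and without it the log2 fold change was -0.03. A gene listed as AABR07067760.1 (ENSRNOG00000051624, chr9:61692154-61694599) carries the protein name of Hsp10, the partner of Hsp60, and lies between Hspd1 and Mob4, where RefSeq places Hspe1 in GRCr8. It had 30.0 and 28.0 against 39.6 and 43.6 CPM and a log2 fold change of 0.52 (SE 0.18, adjusted p = 0.509). It is only 267 bases long, and the length correction gave 0.15. Of 12 other mitochondrial chaperones and proteases, 9 were positive and 3 negative, with a median of 0.02. The import genes Grpel1 and Pam16 and the protease Clpp were at an unadjusted p under 0.05, with log2 fold changes of 0.45, 0.68 and 0.52. With the length correction these were 0.28, 0.38 and 0.28, and none kept an unadjusted p under 0.05.

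Gene length moved with the fold change in the whole table, and the chaperones followed it. Spearman's rho between log2 fold change and gene length was -0.36 over the 14719 genes and -0.30 over the 93, as a description across genes that share libraries. Among the 34 chaperone genes of up to 1797 bases the median log2 fold change was 0.11, with 22 positive, beside 0.18 for all genes of that length. Among the 13 of at least 3109 bases it was -0.12, with 3 positive, beside -0.18 for all genes of that length. The remaining 46 had a median of 0.07, beside 0.01. Of the 5 chaperone and UPR genes at an unadjusted p under 0.05, the 3 higher were in the short class. Atf6 was in the long class and Dnajc18, which was lower, was in the middle class at 1866 bases. Of these 5, only Dnajc18 kept an unadjusted p under 0.05 with the length correction.

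**Figure D5:**
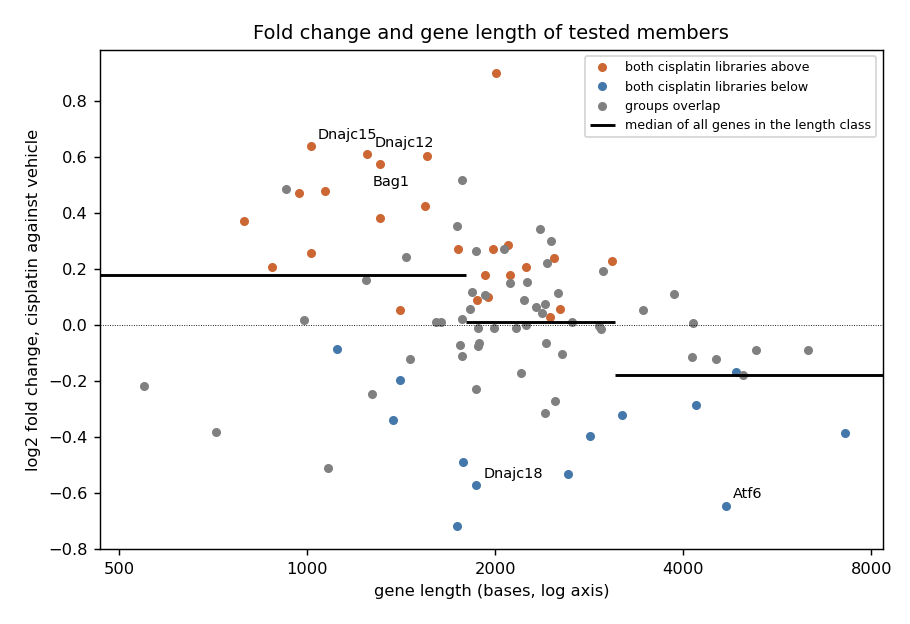
Log2 fold change (vertical axis) against gene length in bases (horizontal log axis) for the 93 tested genes, coloured by whether the groups overlap. Black lines give the median of all genes tested in 3 length classes (0.18, 0.01 and -0.18), and the short Bag1, Dnajc12 and Dnajc15 lie above and the long Atf6 lies below the line of their class.

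The 7 genes that did not pass the filter on low counts were Bag5, Hspa1a, Hsf5, Dnajb7, Dnajb8, Hspb9 and Cct8l1. Dnajb8 and Cct8l1 had 0 counts in every library. Bag5 had 3 and 1 against 0 and 9 counts, and another gene with its protein name held more. Hspbp1, a nucleotide exchange factor of Hsp70 and the more abundant of the remaining members at 85.2 FPKM, had a log2 fold change of 0.24 (SE 0.26, adjusted p = 0.765). Several of the genes overlap others, among them Pdia3 with Ppip5k1, Dnajc19 with Fxr1, Cct8 with Usp16, Ddit3 with Mars, Dnajb14 with H2afz and Hspa1b with RT1-CE genes. Whether counting used strand is not given in the sources used here, so reads of the overlapping stretches cannot be told apart.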

How the data were processed

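The labels put 2 libraries in each group. Per the study's methods, the authors purified polyadenylated RNA, mapped paired reads with HISAT2 2.0.5 to Ensembl Rnor_6.0 and assembled transcripts with StringTie 1.3.3b. Per the labels' processing notes, featureCounts 1.5.0-p3, DESeq2 1.20.0, edgeR 3.22.5 and GATK 4.1.4.1 were also used. The authors deposited raw counts per gene, without normalisation, and FPKM values, which scale the count by gene length and library. FPKM was used for levels between genes, and for the limma 3.58.1 alternatives on log2(FPKM + 1) and log2(FPKM + 0.1), a scale on which the change of low genes is understated. The total count of each library sets only its counting precision, and the spread between replicates adds to this.

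Protein-coding genes kept by filterByExpr entered the quasi-likelihood test of edgeR 4.0.16 under R 4.3.3 (TMM, glmQLFit, glmQLFTest), with Benjamini-Hochberg adjustment over 14719 genes and no block. A gene was called where the adjusted p was under 0.05 and the fold at least 1.5. DESeq2 1.42.0 was run on all protein-coding counts. CPM values carry the TMM factors. The labels number the libraries by rat, and p-values measure the spread between these libraries. An exact permutation test of 2 against 2 cannot go below p = 0.333. The length correction was a lowess curve (span 0.3) of each library on gene length, as an offset. Also tried were all biotypes, a replicate block, scaling by library size alone or by the size factors of DESeq2, omitting the filter or asking for 10 counts in every library, and leaving out each library. The fits were also run on simulated data, with a dispersion set below the 0.0711 of the reported edgeR fit. That run therefore does not show what the fit can detect in these libraries.

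The members, pathway lists and rules were chosen with earlier results of these data known. Members were named if on a core list, most abundant in their role by FPKM, called by either tool, or at an unadjusted edgeR p under 0.05, and listed genes only if called or at that p. Exceptions in the text are stated there. A listed gene that met this rule is not reported here. Marker lists were those of sensory neurons, satellite glia, Schwann cells, macrophages, fibroblasts, endothelium, skeletal muscle and erythroid cells. Proteins and a genome of the files' build were not used here.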

Additional observations from a re-analysis of the deposited data

How the results depend on the processing

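Scaling by library size alone moved the median log2 fold change of the 93 genes from 0.042 to -0.013. Leaving out each library in turn gave medians of 0.041 to 0.091, the highest without vehicle replicate 1, and 0 calls throughout. At an unadjusted p with the fold threshold, 2 genes were called higher (Dnajc12 and Dnajc15) and 1 lower (Atf6). The other settings without a block called 0 of the genes.

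The labels' titles give both groups rats 1 and 2, which are different rats, and the deposited column headings number the cisplatin libraries otherwise (4 and 6). Across the 93 genes, the replicates' deviations correlated between groups with r = 0.43 (rho = 0.54), and across all genes with r = 0.45 (rho = 0.57). With the replicate block, 2 genes were called higher, Dnajc12 (adjusted p = 0.0364 in edgeR) and Dnajc15 (adjusted p = 0.0130 in edgeR), and 1 lower, Atf6 (adjusted p = 0.0119 in edgeR), beside 529 (3.59%) and 1136 (7.72%) of all genes. Over all alternatives the adjusted p ranged up to 0.995 for each of these 3, and to at least 0.995 for every other named member with values. Bag1, Hspb8, Ddit3 and Dnajc18 also had an adjusted p under 0.05 with the block, at 0.00606, 0.00961, 0.0365 and 0.0418 in edgeR, with fold changes under 1.5. Outside the 93, AABR07070032.1, LOC103692716 and AABR07067760.1 had an adjusted p of 0.0148, 0.0161 and 0.0239 with the block in edgeR. Their log2 fold changes there were 0.54, -0.51 and 0.52, also with fold changes under 1.5. With the block and the length correction together, 0 of the 93 genes were called higher and 3 lower (Dnajc18, Dnajc5 and Hspb2). Of all 14719 genes tested, 277 were called higher and 805 lower there (7.35% together). The block's calls of Dnajc12, Dnajc15 and Atf6 thus did not hold with both corrections.

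Of 37 named members, 18 changed sign under at least 1 of 17 alternatives, and 17 of these lay within 1 standard error of 0. The exception was Hspb1, at -0.02 with the length correction. In 72 of the 93 genes the difference between groups was smaller than that between replicates, which limits what 2 libraries a group can show.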
